A study of Saccharomyces cerevisiae with 8 samples.

Results

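Wild type budding yeast grown in hypoxia was compared with the same strain grown in normoxia, across every gene that could be measured on an Affymetrix YG_S98 array. The comparison uses 4 of the 8 arrays of the series, 2 for hypoxia and 2 for normoxia, and covers 5283 genes represented by 1 probe set each. Per the labels, both groups were the wild type strain BY45742 in rich medium (YPD), grown for 6 h and then for 12 h in 15 ml. The hypoxia cultures stood in an anaerobic chamber with a BBL-GasPak, a sachet that removes oxygen, and the other group is labelled normoxia. The other 4 arrays hold a hem1 deletion strain, which makes heme only when fed 5-aminolevulinic acid (ALA), pre-grown for 6 h with ALA and then grown for 16 h without ALA (2 arrays) or with 250 µM ALA (2 arrays). They entered only the estimate of the spread and a test of whether the hypoxia response differs from the response to heme depletion. The labels do not say that the 2 samples of a wild type group came from separate cultures, so the p-values reflect only how far these arrays differ, and that spread may be technical. The labels do not give the cell density of the wild type cultures at harvest.

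Yeast senses oxygen largely through molecules whose synthesis needs it. Heme, made with oxygen, activates Hap1 and the Hap2/3/4/5 complex, which turn on respiratory genes and, through Hap1, the repressor Rox1 that keeps hypoxic genes silent in air. Sterol synthesis also needs oxygen, and a fall in sterols activates Upc2 and Ecm22, the factors that turn on sterol synthesis, sterol uptake and many anaerobic cell wall genes.

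The values are MAS5 signals, a linear intensity in arbitrary units, 1 per probe set and array, with the trimmed mean of every array held at about 500.5. That scaling let the medians shift: the median signal was 140.3 and 146.0 on the hypoxia arrays, against 98.1 and 106.0 on the normoxia arrays, a log2 difference of 0.49. The direction of small differences therefore depends on the scaling. Of the 3954 probe sets (55.8%) past an adjusted p of 0.05 in limma's moderated test, 59.6% were higher in hypoxia with MAS5 scaling, 35.0% of those called after centring each array on its median, 43.9% after quantile normalization and 67.1% after scaling on the hybridization spikes. Below, a gene "rose" or "fell" when it passed the threshold in 1 direction under MAS5 scaling, median centring and quantile normalization alike. This was so for 41.9% of all genes tested (40.9% of probe sets): 17.6% (930 genes) rose and 24.3% (1285 genes) fell. With MAS5 scaling alone 56.6% passed, 31.4% higher and 25.2% lower. Fold changes are ratios of geometric means of the MAS5 signals, and the level of a probe set is compared only with itself. Where the lower group lay at or below its array's 30th percentile on at least 1 of its 2 arrays, the fold is written as "at least", against that percentile. Replicate arrays correlated at 0.985 in hypoxia and 0.977 in normoxia, and arrays of different groups at 0.81 to 0.82. RNA controls also differed: the 3′ to 5′ signal ratio of ACT1 was 2.11 and 2.18 in hypoxia, against 1.40 and 1.49 in normoxia, that of SPT15, the TATA-binding protein gene, was 5.20 and 4.22 in hypoxia, against 2.19 and 2.77 in normoxia, and the second hypoxia array had an 18S ribosomal RNA signal of 10736, against 355 on the first. The part of RNA integrity in the results was not tested. Under all 3 scalings 2897 probe sets passed, and 2198 did when the second hypoxia array and the hem1 array with a high 18S signal were left out. Not all of the 2215 genes that rose or fell passed with MAS5 scaling in each of the 4 fits that left out 1 wild type array. Falls missed the threshold in such a fit more often than rises did, so falls are the less firm of the calls. A call of a single gene is said to be lost where it missed the threshold with MAS5 scaling in such a fit.

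In 3 of 5 oxygen-regulated isoform pairs, in which 1 form is known to serve in air and the other in hypoxia, the hypoxic form rose and the aerobic form fell. ANB1, the hypoxic form of translation factor eIF5A, had signals of 12336 and 14677 in hypoxia, against 518 and 629 in normoxia, and rose 23.6-fold (log2 difference 4.56, SE 0.17, adjusted p = 3.72e-07). HYP2, its aerobic form, had 4445 and 4205 in hypoxia, against 17439 and 7146 in normoxia, and fell 2.58-fold. The normoxia arrays of HYP2 were far apart, and its log2 difference was -0.73 without normoxia array 1, -2.01 without normoxia array 2, and without hypoxia array 2 it no longer passed (adjusted p = 0.0529). In cytochrome c the forms also moved apart. CYC1, the main aerobic isoform, had 22.2 and 17.6 in hypoxia, against 660.4 and 809.6 in normoxia, and fell at least 17.4-fold (log2 difference -5.21, SE 0.34, adjusted p = 9.38e-06). CYC7, the hypoxic isoform, had 212 and 239 in hypoxia, against 106 and 107 in normoxia, and rose 2.10-fold. Both CYC1 hypoxia values lay below the 30th percentile of their arrays, and neither pair of groups overlapped.

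The ADP/ATP carrier showed the same arrangement, and subunit 5 of cytochrome oxidase and HMG-CoA reductase showed it in part. COX5A, the aerobic form, had 164 and 155 in hypoxia, against 719 and 782 in normoxia, and fell 4.71-fold. COX5B, the hypoxic form, had 863 and 656 in hypoxia, against 501 and 491 in normoxia, a difference that passed with MAS5 scaling alone (adjusted p = 0.0202) and was lost without hypoxia array 1 (adjusted p = 0.128), normoxia array 1 (0.0581) or normoxia array 2 (0.067). AAC3, the hypoxic ADP/ATP carrier, had 402 and 404 in hypoxia, against 121 and 104 in normoxia, and rose 3.58-fold, whereas PET9, the main aerobic carrier, fell 1.84-fold. HMG2, the hypoxic form of HMG-CoA reductase, rose 2.67-fold, with 2881 and 3455 in hypoxia, against 1101 and 1269 in normoxia. HMG1, the aerobic form, had 1436 and 1489 in hypoxia, against 1590.1 and 1665 in normoxia, and its difference did not pass (adjusted p = 0.3996). In sum 4 of the 10 isoform genes rose and 4 fell, against 17.6% and 24.3% of all genes. Fewer of them rose with any 1 wild type array left out, and fewer fell without either hypoxia array.

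**Figure D1:**
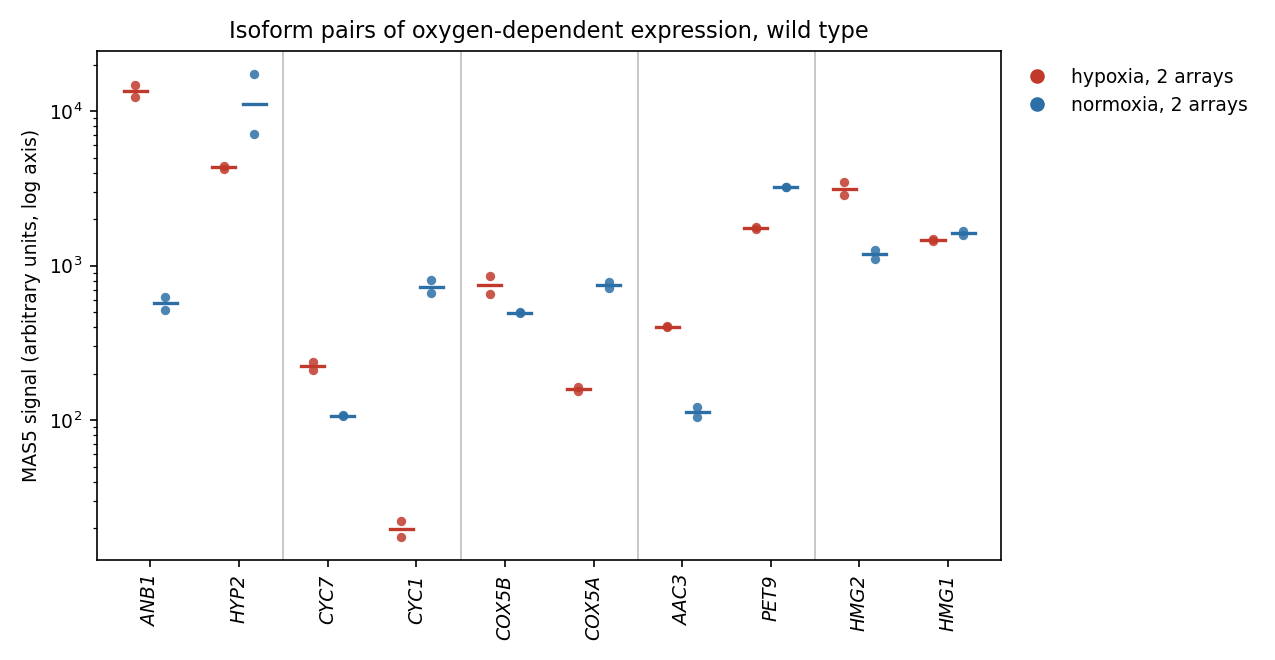
MAS5 signal (log axis) of the 10 genes of 5 isoform pairs on each wild type array, hypoxia in red and normoxia in blue; points are arrays and bars geometric means, and each pair shows its hypoxic form first. The 2 groups do not overlap for any gene but lie close together for HMG1, and ANB1 and CYC1 show the widest gaps.

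Enzymes that use molecular oxygen as a substrate did not move as a block. Of 34 listed, 32 could be tested: 8 rose, 6 fell and 18 did neither, shares near those of all genes, and their median log2 difference was 0.41, against 0.12 over all genes. Among those that rose were 2 enzymes of heme synthesis. HEM13, coproporphyrinogen oxidase, had 2406 and 1817 in hypoxia, against 363 and 194 in normoxia, and rose 7.88-fold (log2 difference 2.98, SE 0.38, adjusted p = 3.12e-04). HEM14, protoporphyrinogen oxidase, had 904 and 1045 in hypoxia, against 320.0 and 292 in normoxia, and rose 3.18-fold. FMS1, a polyamine oxidase, rose 5.52-fold, and BNA2, the dioxygenase that opens the tryptophan ring on the way to NAD, rose at least 8.60-fold. JLP1, a sulfonate dioxygenase, had 20.7 and 29.5 in hypoxia, against 0.753 and 1.22 in normoxia. It rose under all 3 scalings, but all 4 values lay below the 30th percentile of their arrays, so no fold is given.

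Other oxygen-dependent enzymes were lower. FET3, the multicopper oxidase of high-affinity iron uptake, had 449 and 459 in hypoxia, against 3073 and 2993 in normoxia, and fell 6.68-fold (log2 difference -2.74, SE 0.13, adjusted p = 1.79e-06). SCS7, which hydroxylates the fatty acid of sphingolipids, fell 3.33-fold, and YHB1, the flavohemoglobin that removes nitric oxide, fell 3.21-fold, with 1084 and 921 in hypoxia, against 3040.2 and 3395 in normoxia. BNA1, the dioxygenase of a later step of NAD synthesis, fell 2.56-fold, opposite to BNA2. The sterol and fatty acid desaturation enzymes stood closer to the array shift: OLE1, the only fatty acid desaturase of yeast, had 10153 and 7969.8 in hypoxia, against 5683 and 6004 in normoxia, ERG11 had 9698 and 9146 in hypoxia, against 5391 and 5259 in normoxia, and ERG1 had 3501 and 3038 in hypoxia, against 1899.8 and 2202 in normoxia. All 3 were higher with MAS5 scaling, by 1.54-fold, 1.77-fold and 1.59-fold, and none passed under all 3 scalings. ERG11 and ERG1 also passed as higher after quantile normalization, but not after median centring. OLE1 was also lost without hypoxia array 1 (adjusted p = 0.0655).

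**Figure D2:**
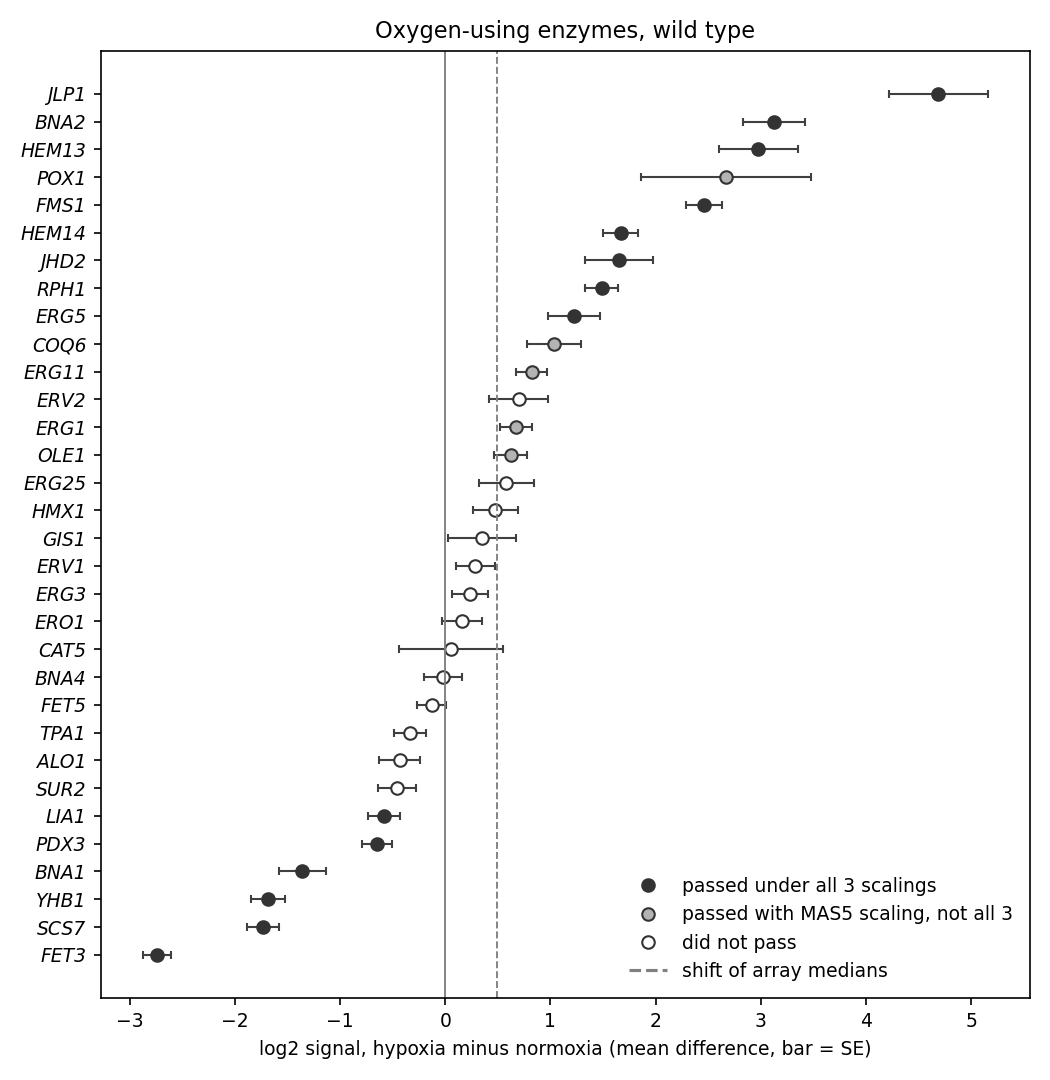
Log2 difference, hypoxia minus normoxia, of the 32 oxygen-using enzymes tested, with the standard error of the limma fit as bars; the dashed line marks the 0.49 shift between array medians. Filled points passed under all 3 scalings: 8 lie to the right and 6 to the left, and several sterol enzymes lie close to the dashed line.

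Among regulators of the oxygen and sterol response, the rise was in the sterol and hypoxic activators. UPC2, the sterol-sensing activator, had 909.7 and 807 in hypoxia, against 48.3 and 41.2 in normoxia, and rose 19.2-fold (log2 difference 4.26, SE 0.17, adjusted p = 6.55e-07). ECM22, its paralog, rose 3.15-fold. SUT1, which promotes sterol uptake, had 481 and 479 in hypoxia, against 96.2 and 80.98 in normoxia, and rose 5.43-fold. MGA2, the membrane-bound activator of OLE1, rose 4.72-fold, and its hypoxia arrays were apart, at 404 and 169, so that its log2 difference was 1.61 without hypoxia array 1 and 2.87 without hypoxia array 2. Of 16 regulators tested, 4 rose and 1 fell, against 17.6% and 24.3% of all genes, so the share of rises was not far from that of all genes.

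The transcripts of the heme-dependent and repressing factors mostly did not pass. ROX1, the hypoxic repressor, had 26.97 and 36.6 in hypoxia, against 49.8 and 40.8 in normoxia, and did not pass (adjusted p = 0.1264). MOT3, another repressor of hypoxic genes, had 29.5 and 38.5 in hypoxia, against 32.96 and 33.1 in normoxia, and did not pass either (adjusted p = 0.9603). For both, the hypoxia values lay below the 30th percentile. HAP4, the regulated subunit of the Hap complex, had 214 and 211 in hypoxia, against 175 and 194 in normoxia, and did not pass. HAP3, a DNA-binding subunit, fell 1.92-fold, a call that was lost in 3 of the 4 fits with 1 array left out. For HAP1 the call depended on the probe set, though no probe set was lower in hypoxia. The 1 with the highest mean, which can cross-hybridise, had 1581 and 1153 in hypoxia, against 922 and 1116 in normoxia, and did not pass. Another, not marked as cross-hybridising, had 916 and 982 in hypoxia, against 200 and 184 in normoxia. It rose by 2.31 on the log2 scale (adjusted p = 8.98e-06), so HAP1 may be an exception among these factors.

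Of the 10 genes of heme synthesis and use, 4 rose and 1 fell, against 17.6% and 24.3% of all genes. Besides HEM13 and HEM14, HEM1, the first and ALA-forming enzyme, had 1413 and 1613 in hypoxia, against 707 and 683 in normoxia, and rose 2.17-fold. PUG1, a transporter for heme and protoporphyrin, rose at least 5.57-fold, with 171 and 149.9 in hypoxia, against 16.9 and 22.6 in normoxia. HMX1, the heme oxygenase that degrades heme, had 184 and 271 in hypoxia, against 172 and 149 in normoxia, and did not pass. HEM4 fell 1.40-fold, a call lost in each of the 4 fits with 1 array left out. HEM3 and HEM12, for steps in between, did not pass.

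The cell wall held wide gaps between the groups. All 6 anaerobic mannoproteins of the DAN and TIR group rose. DAN1 had 7492 and 8259.5 in hypoxia, against 11.5 and 32.7 in normoxia, and rose at least 267-fold; its log2 difference was 7.91 without normoxia array 1 and 9.42 without normoxia array 2. TIR4 had 12702 and 15272 in hypoxia, against 102 and 108 in normoxia, and rose 133-fold (log2 difference 7.05, SE 0.21, adjusted p = 1.24e-07). DAN4 rose 44.4-fold, TIR3 20.4-fold, TIR1 9.25-fold and TIR2 4.95-fold. TIR1 had 25880.0 and 29299.9 in hypoxia, against 2941 and 3015 in normoxia. DAN1 in normoxia lay below the 30th percentile on array 1 and just above it on array 2.

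Mannoproteins of the aerobic wall went both ways, 3 of 13 up and 5 down, against 17.6% and 24.3% of all genes. CWP1 had 249 and 290.5 in hypoxia, against 9306 and 8039.9 in normoxia, and fell 32.2-fold (log2 difference -5.01, SE 0.36, adjusted p = 1.49e-05). CWP2 fell 5.90-fold, SRL1 6.10-fold, CIS3 2.57-fold and PIR1 1.84-fold. Against these, PIR3, a wall protein of the same family as PIR1, had 1889.9 and 2389.9 in hypoxia, against 49.2 and 66.6 in normoxia, and rose 37.1-fold. SPI1, a stress-induced wall protein, rose 5.25-fold, and PST1, which marks wall damage, rose 4.08-fold.

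The enzymes that build and remodel wall polysaccharide were mostly lower where they passed, 4 of 25 up and 11 down, against 17.6% and 24.3% of all genes. UTR2, a chitin-glucan crosslinking enzyme, had 262 and 207 in hypoxia, against 7279 and 7157 in normoxia, and fell 31.01-fold (log2 difference -4.95, SE 0.21, adjusted p = 9.08e-07). SCW10, a glucanase-like wall protein, fell 15.3-fold, and the glucan-elongating GAS3 and GAS1 fell 10.02-fold and 6.12-fold. GSC2, the alternative catalytic subunit of glucan synthase, had 3574 and 3428 in hypoxia, against 193 and 178 in normoxia, and rose 18.9-fold, and its relative FKS3 rose 4.60-fold. The chitin deacetylases CDA1 and CDA2, known from spore walls, rose at least 1.67-fold and 3.20-fold. Of 11 genes of daughter-cell separation, 2 rose, near the 17.6% of all genes, and 5 fell, against 24.3% of all genes. AMN1, an antagonist of mitotic exit, had 585 and 497 in hypoxia, against 2469 and 2132 in normoxia, and fell 4.26-fold. PRY3 fell 3.50-fold and DSE2 2.56-fold, while the glucanase DSE4 rose 3.53-fold and the daughter-specific repressor ASH1 rose 3.07-fold.

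**Figure D3:**
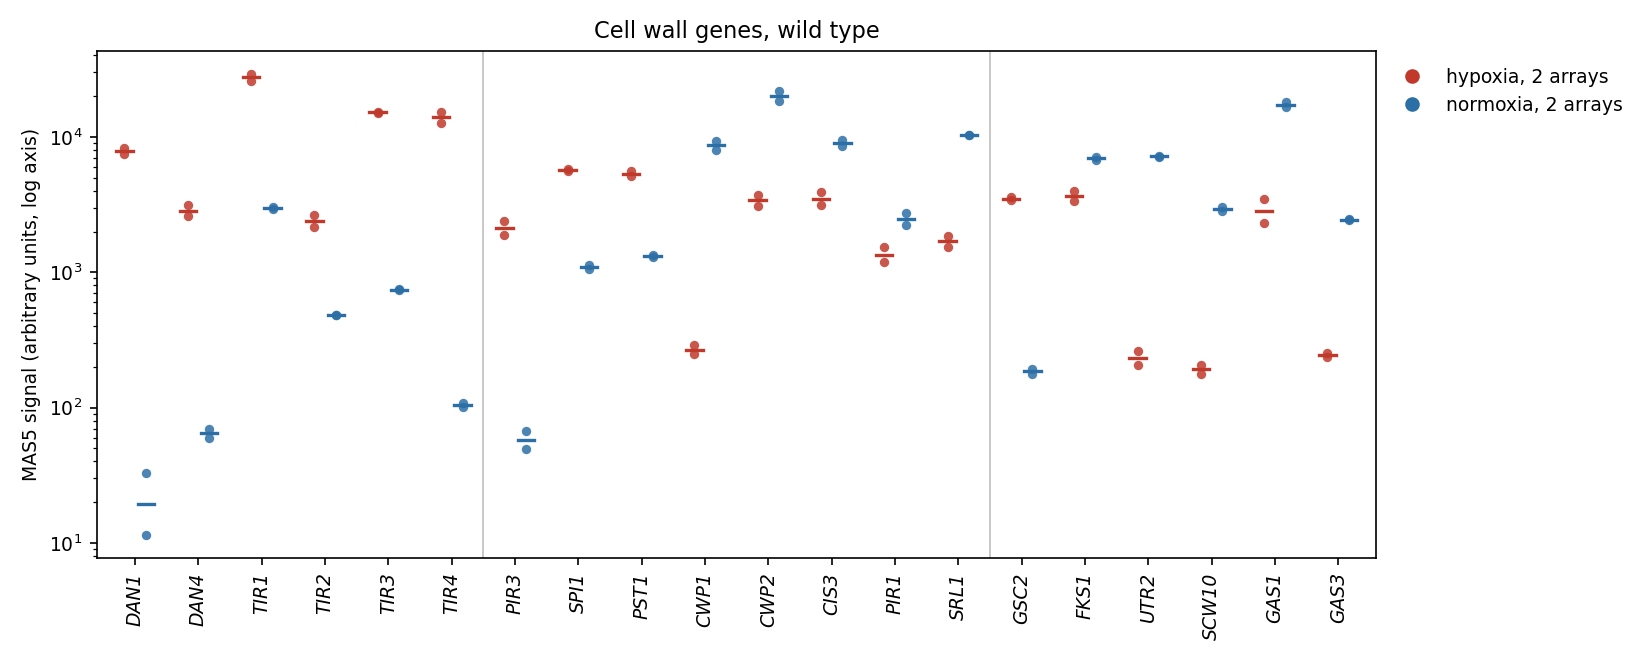
MAS5 signal (log axis) of 20 cell wall genes on each wild type array, hypoxia in red and normoxia in blue, with bars for geometric means; vertical lines part the anaerobic mannoproteins, the other wall proteins and the glucan enzymes. The 6 DAN and TIR genes are all higher in hypoxia, and the replicate arrays of TIR3, TIR4, CWP1, UTR2 and GAS3 lie close together against the gap between groups.

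Of 7 genes for sterol import and storage 4 rose and 1 fell, against 17.6% and 24.3% of all genes. AUS1, a sterol importer of the plasma membrane, had 2804 and 2731 in hypoxia, against 94.8 and 98.6 in normoxia, and rose 28.6-fold (log2 difference 4.84, SE 0.14, adjusted p = 1.24e-07). PDR11, the related importer, had 543 and 459 in hypoxia, against 51.96 and 61.2 in normoxia, and rose 8.85-fold. Of the storage enzymes, ARE1, the sterol acyltransferase, rose 3.93-fold, while its paralog ARE2 had 34.6 and 35.7 in hypoxia, against 86.9 and 66.6 in normoxia, a fall of at least 1.81-fold that was lost without hypoxia array 1 (adjusted p = 0.0516) or normoxia array 1 (adjusted p = 0.0653). YEH1, a steryl ester hydrolase, rose 4.59-fold. All 6 oxysterol-binding proteins tested passed, 4 rising (2 without the arrays of high 18S signal) and 2 falling: HES1 had 922 and 987 in hypoxia, against 1.77 and 8.08 in normoxia, and rose at least 33.2-fold, with log2 differences of 6.88 without normoxia array 1 and 9.07 without normoxia array 2, whereas KES1, its paralog, fell 1.53-fold.

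In the pathway from squalene to ergosterol 5 of 15 genes rose and 1 fell, against 17.6% and 24.3% of all genes. With MAS5 scaling 12 of 15 were higher, after quantile normalization 14 and after median centring 5. The 5 rises became 3 without either hypoxia array and 2 without normoxia array 1. ERG28, a scaffold of the C4-demethylation complex, had 2198 and 2124 in hypoxia, against 691 and 624 in normoxia, and rose 3.29-fold. CYB5, the cytochrome b5 that feeds electrons to sterol and sphingolipid enzymes, rose 3.28-fold, ERG7, the lanosterol synthase, rose 2.41-fold, and ERG5, the C-22 desaturase, rose 2.34-fold. ERG4, the last enzyme of the pathway, went the other way, with 821 and 469.9 in hypoxia, against 2678 and 2452 in normoxia, and fell 4.13-fold. The earlier mevalonate branch had 1 riser, HMG2, among 10 genes. YSR3, a phosphatase of sphingoid base phosphates, had 4938 and 5529.5 in hypoxia, against 76.3 and 78.8 in normoxia, and rose 67.4-fold (log2 difference 6.07, SE 0.17, adjusted p = 1.24e-07).

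Of 17 fatty acid and sphingoid genes 4 rose and 6 fell, against 17.6% and 24.3% of all genes. ACC1, acetyl-CoA carboxylase, had 16431 and 18253 in hypoxia, against 5652 and 5662 in normoxia, and rose 3.06-fold, and FAS2, a subunit of fatty acid synthase, rose 2.94-fold. FAS1, its other subunit, had 3082 and 4417 in hypoxia, against 1539.6 and 2159 in normoxia, higher with MAS5 scaling but not under all 3. The acyl-CoA synthetases FAA2 and FAA4 rose 6.18-fold and 3.52-fold, while FAA1 had 15.5 and 10.4 in hypoxia, against 103 and 336 in normoxia, a fall of at least 4.43-fold whose normoxia arrays were apart (log2 difference -4.73 without normoxia array 1 and -3.02 without normoxia array 2). Of 6 elongation genes 4 fell: ELO1 had 1190.2 and 1374 in hypoxia, against 5684 and 4967 in normoxia, and fell 4.15-fold, IFA38 3.55-fold, ELO2 2.64-fold and TSC13 2.08-fold. ELO3 had 2630.0 and 2645 in hypoxia, against 3855 and 3566 in normoxia, lower with MAS5 scaling but not after quantile normalization. That call was lost with any 1 wild type array left out, and PHS1 did not pass. In phospholipid synthesis, 5 of 17 rose and 4 fell, the falls near the share of all genes. INO1, which makes inositol phosphate, had 160.3 and 249 in hypoxia, against 8.36 and 18.6 in normoxia, and rose at least 6.94-fold, and its activator INO2 rose 5.22-fold. The repressor OPI1 fell 1.88-fold, and CHO1, phosphatidylserine synthase, had 496 and 590.0 in hypoxia, against 2394 and 2429.9 in normoxia, and fell 4.46-fold. The methyltransferase OPI3 rose 3.19-fold.

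Nuclear genes of cytochrome oxidase, the bc1 complex and ATP synthase that passed were all lower in hypoxia. Over all genes 24.3% fell, against 71.4% of the cytochrome oxidase list, 33.3% of bc1 and 35.7% of ATP synthase. The last 2 shares were not far above that of all genes. In cytochrome oxidase, 5 of 7 subunits beyond the COX5 pair fell and none rose. COX6 had 472 and 379 in hypoxia, against 1451 and 1524 in normoxia, and fell 3.51-fold (log2 difference -1.81, SE 0.17, adjusted p = 5.99e-05), COX4 fell 2.20-fold, COX12 2.04-fold and COX13 1.78-fold. In the cytochrome bc1 complex 3 of 9 fell (1 of 9 without hypoxia array 2), with RIP1, the iron-sulfur subunit, at 727 and 691 in hypoxia, against 1524 and 1469 in normoxia, a fall of 2.11-fold. The other bc1 calls, COR1 and CYT1, were each lost in 3 of the 4 fits with 1 array left out. ATP synthase had 5 of 14 fall and none rise, among them ATP20 (2.29-fold), TIM11 (2.19-fold) and ATP16 (2.09-fold), but its catalytic subunits ATP1 and ATP2 did not pass. With MAS5 scaling the list medians were -0.83 for cytochrome oxidase, -0.55 for bc1 and -0.38 for ATP synthase, against 0.12 over all genes.

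Factors that assemble the respiratory chain mostly stayed uncalled. Of 29 tested, 1 rose and 2 fell under all 3 scalings, against 41.9% of all genes passing, and the 2 falls were lost with any 1 wild type array left out, while the rises counted 0 without hypoxia array 2 or normoxia array 2 and 4 without normoxia array 1. PET122, a translational activator of COX3, rose 2.40-fold. Of 8 mitochondrially encoded genes, 4 could be tested. COX1 had 3269.8 and 1894 in hypoxia, against 1981 and 1136 in normoxia, and OLI1 had 7514 and 6147 in hypoxia, against 6153 and 5368 in normoxia, neither past the threshold. A dimmer COX1 probe set was higher with MAS5 scaling (adjusted p = 0.0496) but not under all 3. COB had 160 and 98.1 in hypoxia, against 47.3 and 29.8 in normoxia, also higher with MAS5 scaling (adjusted p = 0.0075) but not under all 3. COX3, with 126 and 63.9 in hypoxia, against 12.3 and 14.8 in normoxia, rose at least 3.12-fold. In coenzyme Q synthesis COQ2, the prenyltransferase, had 776 and 803 in hypoxia, against 168 and 185 in normoxia, and rose 4.47-fold, whereas CAT5, the oxygen-using hydroxylase, did not pass, its normoxia arrays being apart at 53.6 and 175.

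Of 18 TCA cycle genes 2 rose and 4 fell, no more than the 17.6% and 24.3% of all genes. IDH1, 1 of the 2 subunits of isocitrate dehydrogenase, had 1335 and 1585 in hypoxia, against 314 and 443 in normoxia, and rose 3.90-fold (log2 difference 1.96, SE 0.22, adjusted p = 1.67e-04). IDH2, the other subunit, had 3340.1 and 3973 in hypoxia, against 4544 and 5326 in normoxia, lower with MAS5 scaling but not after quantile normalization. That call was lost without hypoxia array 1 or normoxia array 2. LPD1, the shared dehydrogenase subunit of pyruvate and ketoglutarate dehydrogenase, had 1887 and 1417 in hypoxia, against 3830.4 and 4104 in normoxia, and fell 2.42-fold, and KGD2 fell 1.85-fold. PYC1, pyruvate carboxylase, rose 2.52-fold. No subunit of succinate dehydrogenase passed under all 3 scalings. Of 11 genes that reoxidise NADH 3 rose and 3 fell (27.3% each), not far from the 17.6% and 24.3% of all genes. The external dehydrogenases moved apart: NDE2 had 146 and 191 in hypoxia, against 11.2 and 4.11 in normoxia, and rose at least 5.80-fold, while NDE1 had 735 and 792 in hypoxia, against 1912 and 1832 in normoxia, and fell 2.45-fold. The normoxia values of NDE2 differed, giving log2 differences of 5.34 without normoxia array 1 and 3.89 without normoxia array 2. The fumarate reductases FRD1 and OSM1, which can use fumarate as an electron acceptor, rose 1.89-fold and 2.08-fold; without either hypoxia array 1 of the 3 rises of this list was left under all 3 scalings. GPD2, the glycerol 3-phosphate dehydrogenase known for redox balance in anaerobic yeast, had 284 and 264 in hypoxia, against 632 and 489.8 in normoxia, and fell 2.03-fold.

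In glycolysis 1 of 16 genes rose and 4 fell, a share of falls near the 24.3% of all genes. HXK2, the main hexokinase, had 3110.4 and 2322 in hypoxia, against 7856 and 7595 in normoxia, and fell 2.87-fold (log2 difference -1.52, SE 0.16, adjusted p = 1.13e-04), and the phosphofructokinase subunits PFK1 and PFK2 fell 2.11-fold and 1.88-fold. PGI1 fell 1.82-fold. TDH1, the minor glyceraldehyde 3-phosphate dehydrogenase, had 5932 and 6396 in hypoxia, against 1730.4 and 2554 in normoxia, and rose 2.93-fold. The fermentative ADH1 fell 2.31-fold, with 11162 and 11977 in hypoxia, against 28969 and 24702 in normoxia, and PDC1 had 6918 and 7537 in hypoxia, against 7805 and 8939 in normoxia, and did not pass. Of the 16 glycolytic genes 9 were lower with MAS5 scaling, 11 after median centring and 4 after quantile normalization.

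Genes for using non-fermentable carbon were mostly higher. Of 9 tested in the glyoxylate and gluconeogenesis list, 7 rose and 1 fell; 4 rose without the arrays of high 18S signal. PCK1, the first committed enzyme of gluconeogenesis, had 823 and 935 in hypoxia, against 114 and 87.1 in normoxia, and rose 8.81-fold (log2 difference 3.14, SE 0.20, adjusted p = 7.97e-06). ICL1, isocitrate lyase, had 422 and 499.8 in hypoxia, against 139.6 and 118 in normoxia, and rose 3.58-fold, and CAT2, carnitine acetyltransferase, rose 5.59-fold. MDH2, the cytosolic malate dehydrogenase, fell 1.64-fold. The aldehyde dehydrogenase ALD3 had 349.5 and 387 in hypoxia, against 23.9 and 17.2 in normoxia, and rose at least 12.8-fold, and the acetyl-CoA synthetase ACS1 rose 4.55-fold. Of hexose transport genes 4 of 11 rose and 1 fell, against 17.6% and 24.3% of all genes. HXT5, the transporter of slow growth, had 929 and 673 in hypoxia, against 18.96 and 5.30 in normoxia, and rose at least 27.5-fold; its log2 difference was 7.22 without normoxia array 1 and 5.38 without normoxia array 2. HXT2, a high-affinity transporter, rose 2.83-fold, while HXT1, HXT3 and HXT4 did not pass under all 3 scalings.

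Storage carbohydrate genes rose, 10 of 17, with 1 fall, against 17.6% and 24.3% of all genes. GPH1, glycogen phosphorylase, had 2158 and 2299 in hypoxia, against 153 and 103 in normoxia, and rose 17.8-fold (log2 difference 4.15, SE 0.21, adjusted p = 2.07e-06). GDB1, the debranching enzyme, rose 7.97-fold, and TSL1, a subunit of trehalose synthase, rose 4.78-fold. Genes of both synthesis and breakdown were among them, for GSY2, glycogen synthase, rose 2.43-fold and NTH1, a trehalase, rose 2.45-fold. UGP1, which makes the UDP-glucose used by both pathways, had 1596 and 1703 in hypoxia, against 3449 and 3364 in normoxia, and fell 2.07-fold. Peroxisomal beta-oxidation had 4 of 11 up (36.4%, against 17.6% of all genes) and none down. POT1, the thiolase, had 208 and 235 in hypoxia, against 21.1 and 23.4 in normoxia, and rose at least 7.68-fold.

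In reductive iron uptake 3 of 12 genes rose and 3 fell, the falls near the 24.3% of all genes, and 1, 0 and 1 rose without hypoxia array 1, hypoxia array 2 and normoxia array 1. Of 15 low-affinity, copper and zinc transport genes 2 rose and 4 fell, near the 17.6% and 24.3% of all genes. Beside FET3, the permease FTR1 had 279 and 244 in hypoxia, against 686 and 708 in normoxia, and fell 2.67-fold, and the reductase FRE1 had 77.02 and 81.7 in hypoxia, against 255 and 257 in normoxia, and fell 3.23-fold. CTR1, the high-affinity copper transporter, had 148 and 163 in hypoxia, against 599 and 639 in normoxia, and fell 3.99-fold (log2 difference -1.996, SE 0.19, adjusted p = 7.75e-05). FET4, the low-affinity iron transporter, had 647 and 741 in hypoxia, against 202 and 329 in normoxia, and rose 2.69-fold, a call lost without hypoxia array 2 (adjusted p = 0.0547). Of the other reductases, FRE8 rose at least 2.20-fold and FRE4 at least 2.91-fold. Siderophore transport had 1 of 7 up and 1 down, against 17.6% and 24.3% of all genes. FIT2, a wall mannoprotein for siderophores, rose 2.18-fold. COT1, a vacuolar cobalt and zinc transporter, rose 2.79-fold. In iron-sulfur assembly 3 of 18 rose (1 without hypoxia array 2 or normoxia array 1) and 4 fell, near the 17.6% and 24.3% of all genes, NAR1 of the cytosolic machinery rising 2.81-fold and the cysteine desulfurase NFS1 falling 2.04-fold, with 724 and 777 in hypoxia, against 1568 and 1499 in normoxia.

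Of redox defence genes 7 of 28 rose and 7 fell, not far from the 17.6% and 24.3% of all genes. TSA2, a peroxiredoxin, had 3752 and 3807 in hypoxia, against 68.99 and 79.5 in normoxia, and rose 51.04-fold (log2 difference 5.67, SE 0.16, adjusted p = 1.22e-07). GPX1, a peroxidase, had 556 and 622 in hypoxia, against 78.2 and 92.6 in normoxia, and rose 6.91-fold, while GPX2, its relative, had 43.1 and 44.2 in hypoxia, against 173 and 209 in normoxia, and fell 4.35-fold. TRR2, the mitochondrial thioredoxin reductase, rose 3.34-fold, and the glutathione transferase GTT2 rose 4.22-fold. GSH2, glutathione synthetase, fell 3.10-fold, and GLR1, glutathione reductase, fell 2.28-fold. The thioredoxin and glutathione systems each held members on both sides.

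Sulfate assimilation rose in 9 of 10 genes, against 17.6% of all genes, with a median log2 difference of 3.09. MET14, the APS kinase, had 1554 and 1921 in hypoxia, against 86.8 and 154 in normoxia, and rose 14.96-fold (log2 difference 3.90, SE 0.27, adjusted p = 1.28e-05). MET3, ATP sulfurylase, had 820.5 and 1005 in hypoxia, against 62.99 and 109.6 in normoxia, and rose 10.9-fold, and MET16, which reduces PAPS, rose 8.06-fold. SUL2, a sulfate permease, rose 9.22-fold, and the sulfite reductase subunits MET10 and MET5 rose 9.05-fold and 4.90-fold. MET1 and MET8, which make the siroheme of sulfite reductase, rose 13.8-fold and 3.64-fold. MET22 did not pass.

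The genes that turn reduced sulfur into methionine rose as well, 12 of 19, with 2 falls, against 17.6% and 24.3% of all genes. MET2, homoserine acetyltransferase, had 1396 and 1576 in hypoxia, against 22.5 and 25.8 in normoxia, and rose at least 51.6-fold (log2 difference 5.94, SE 0.19, adjusted p = 1.84e-07). STR3, cystathionine beta-lyase, had 1037 and 1030.1 in hypoxia, against 52.6 and 64.3 in normoxia, and rose 17.8-fold, and MET6, methionine synthase, had 4125 and 3762 in hypoxia, against 734 and 417 in normoxia, and rose 7.12-fold. The S-methylmethionine genes MHT1 and MMP1 rose at least 7.21-fold and 6.72-fold, but SAM4, a homocysteine methyltransferase related to MHT1, had 187 and 242 in hypoxia, against 1292 and 1522 in normoxia, and fell 6.59-fold. Of the regulators, MET28 rose 13.5-fold, MET32 at least 5.17-fold and MET30, the F-box protein that restrains Met4, 3.38-fold. MET4, the activator itself, had 315 and 386 in hypoxia, against 47.6 and 109 in normoxia, and rose 4.83-fold, with log2 differences of 1.67 without normoxia array 1 and 2.87 without normoxia array 2. The cysteine genes CYS3 and CYS4 did not pass.

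Of 15 thiamine and pyridoxine genes, 9 rose and 2 fell, against 17.6% and 24.3% of all genes. In biotin synthesis and uptake 3 of 6 rose and none fell. In NAD synthesis 1 of 13 rose and 2 fell, both below the shares of all genes. SNZ1 and SNO1, the pair that makes pyridoxal phosphate in stationary cells, rose 15.4-fold and at least 14.03-fold, with SNZ1 at 951 and 1263 in hypoxia, against 61.00 and 83.1 in normoxia. THI4, which builds the thiazole of thiamine, had 849.8 and 847 in hypoxia, against 75.8 and 85.9 in normoxia, and rose 10.5-fold. THI72, a permease related to the thiamine transporter, rose 6.43-fold. PHO3, an acid phosphatase that frees thiamine from its phosphate, had 703 and 411 in hypoxia, against 3883 and 3312 in normoxia, and fell 6.67-fold, and THI7, the main thiamine transporter, did not pass. Among the biotin genes BIO3 rose 4.86-fold and BIO4 3.40-fold. BIO5, the biotin precursor transporter, rose at least 2.82-fold, with hypoxia values of 53.9 and 122 that gave log2 differences of 3.24 without hypoxia array 1 and 2.06 without hypoxia array 2.

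Nucleotide synthesis genes mostly fell. None of 20 purine and one-carbon genes rose and 11 fell, and of 11 pyrimidine genes 1 rose and 9 fell, against 24.3% of all genes falling. The purine count was 6 without hypoxia array 1 and 7 without normoxia array 2. IMD2 and IMD3, for the committed step of GMP synthesis, fell 3.05-fold and 2.05-fold; their probe sets can cross-hybridise. SHM1, a serine hydroxymethyltransferase, had 1859 and 1908 in hypoxia, against 4098 and 3922 in normoxia, and fell 2.13-fold. FUR1, which salvages uracil, had 750.5 and 424 in hypoxia, against 3679 and 2452 in normoxia, and fell 5.32-fold (log2 difference -2.41, SE 0.30, adjusted p = 2.96e-04), and URA7, the main CTP synthase, fell 2.74-fold. URA1, whose enzyme in this yeast uses fumarate in place of oxygen, had 4137 and 4989 in hypoxia, against 9610.0 and 8417 in normoxia, and fell 1.98-fold, a call lost without hypoxia array 1 (adjusted p = 0.0768) or normoxia array 1 (adjusted p = 0.0505). URA10, the minor form of orotate phosphoribosyltransferase, had 269.8 and 333 in hypoxia, against 48.6 and 45.3 in normoxia, and rose 6.39-fold, while URA5, the major form, fell 2.29-fold.

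Amino acid genes were mixed. Arginine synthesis rose where it passed: ARG1 had 1337 and 1518 in hypoxia, against 254 and 274 in normoxia, and rose 5.40-fold, ARG3 rose at least 4.38-fold and CPA1 3.04-fold, while the breakdown enzymes CAR1 and CAR2 fell 2.80-fold and 1.71-fold. In the branched-chain pathway ILV2 and ILV5 rose 2.77-fold and 2.59-fold, and ILV6, the regulatory subunit of the ILV2 enzyme, had 1410.0 and 1753 in hypoxia, against 3967 and 3906 in normoxia, and fell 2.50-fold. Of 15 amino acid and ammonium permeases 3 rose (5 without normoxia array 1) and 2 fell (1 with any 1 wild type array left out), the rises near the 17.6% of all genes. The risers BAP2, DIP5 and AGP1 rose 2.93-fold, 2.67-fold and 2.39-fold. In the phosphate regulon, PHM8, a phosphatase of nucleotide monophosphates, had 1106 and 1109 in hypoxia, against 71.8 and 70.3 in normoxia, and rose 15.6-fold (log2 difference 3.96, SE 0.15, adjusted p = 4.52e-07), and PHO89, the sodium-phosphate cotransporter, rose 9.48-fold. VTC3, a subunit of the polyphosphate synthase, had 215 and 243 in hypoxia, against 1022 and 1018 in normoxia, and fell 4.47-fold, and the other subunits VTC1, VTC2 and VTC4 fell 2.69-fold, 3.01-fold and 2.20-fold. PHO84, the main phosphate transporter, had 7276 and 8204 in hypoxia, against 10160.5 and 8935 in normoxia, and did not pass.

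The machinery of protein synthesis was lower. Of 138 cytosolic ribosomal protein genes on the list, 81 had a probe set of their own, and some of these may still share signal with a near-identical copy. Of the 81, 56 fell and 1 rose, against 24.3% and 17.6% of all genes. The median log2 difference was -0.88, or -1.37 after median centring, against 0.12 and -0.37 over all genes. RPS1A had 5728 and 6468 in hypoxia, against 18969 and 16224 in normoxia, and fell 2.88-fold, RPL13B fell 2.74-fold and RPL25 2.34-fold. RPL22B, the minor copy of its pair, had 853 and 643 in hypoxia, against 301 and 311 in normoxia, and rose 2.42-fold. Of 18 aminoacyl-tRNA synthetases, 17 fell and none rose. THS1, for threonine, had 1566 and 1274 in hypoxia, against 6773 and 6571 in normoxia, and fell 4.72-fold (log2 difference -2.24, SE 0.15, adjusted p = 9.59e-06), and TYS1, for tyrosine, fell 5.17-fold. KRS1, for lysine, was the exception, with 3051 and 3453 in hypoxia, against 4850.2 and 4683 in normoxia, and adjusted p = 0.1611.

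Translation factors had 17 of 26 down (11 without hypoxia array 2) and 1, ANB1, up. TEF4, a subunit of elongation factor 1B, had 575 and 582 in hypoxia, against 2995 and 3568 in normoxia, and fell 5.65-fold. Of ribosome biogenesis genes 22 of 56 fell, 39.3% against the 24.3% of all genes, and none rose. GAR1 of the box H/ACA particle had 2079 and 1591 in hypoxia, against 5537 and 4881 in normoxia, and fell 2.86-fold. Subunits of RNA polymerases I and III had 10 of 19 down and none up, RPC19 among them with 2.37-fold. Of mitochondrial ribosomal proteins 17 of 67 fell and none rose, a share of falls near that of all genes (24.3%), and 11 fell with any 1 wild type array left out.

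Genes of protein turnover and folding moved in both directions. Of 32 proteasome genes, 19 fell and 1 rose, against 24.3% and 17.6% of all genes. The riser was RPN4, the transcription activator of the proteasome genes, with 1056 and 1107 in hypoxia, against 379 and 302 in normoxia, and it rose 3.19-fold (log2 difference 1.67, SE 0.16, adjusted p = 7.00e-05). PRE1, a core subunit, had 803 and 781 in hypoxia, against 1817 and 2099 in normoxia, and fell 2.47-fold, and RPT6, an ATPase of the base, fell 2.19-fold. Cytosolic chaperones split 4 up and 5 down of 16, not far from the 17.6% and 24.3% of all genes, and fewer were down without normoxia array 2. HSP26, a small heat shock protein, had 7294 and 7135 in hypoxia, against 341 and 362 in normoxia, and rose 20.5-fold, and SSA3 and SSA4, the stress-induced Hsp70 forms, rose 17.96-fold and 3.79-fold. SSA2, a constitutive Hsp70, had 12029 and 13114 in hypoxia, against 29759.9 and 27302 in normoxia, and fell 2.27-fold, and HSC82, the constitutive Hsp90, fell 2.20-fold. Of 19 folding genes of the endoplasmic reticulum 2 rose and 6 fell, also not far from the shares of all genes. KAR2, the Hsp70 there, had 1873 and 1787 in hypoxia, against 7531 and 6931 in normoxia, and fell 3.95-fold. IRE1, the sensor of unfolded proteins, rose 2.99-fold. Mitochondrial import had 13 of 30 down (8 without normoxia array 2) and none up, with the receptors TOM70 and TOM22 and the channel TOM40 falling 2.55-fold, 2.19-fold and 2.30-fold.

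**Figure D4:**
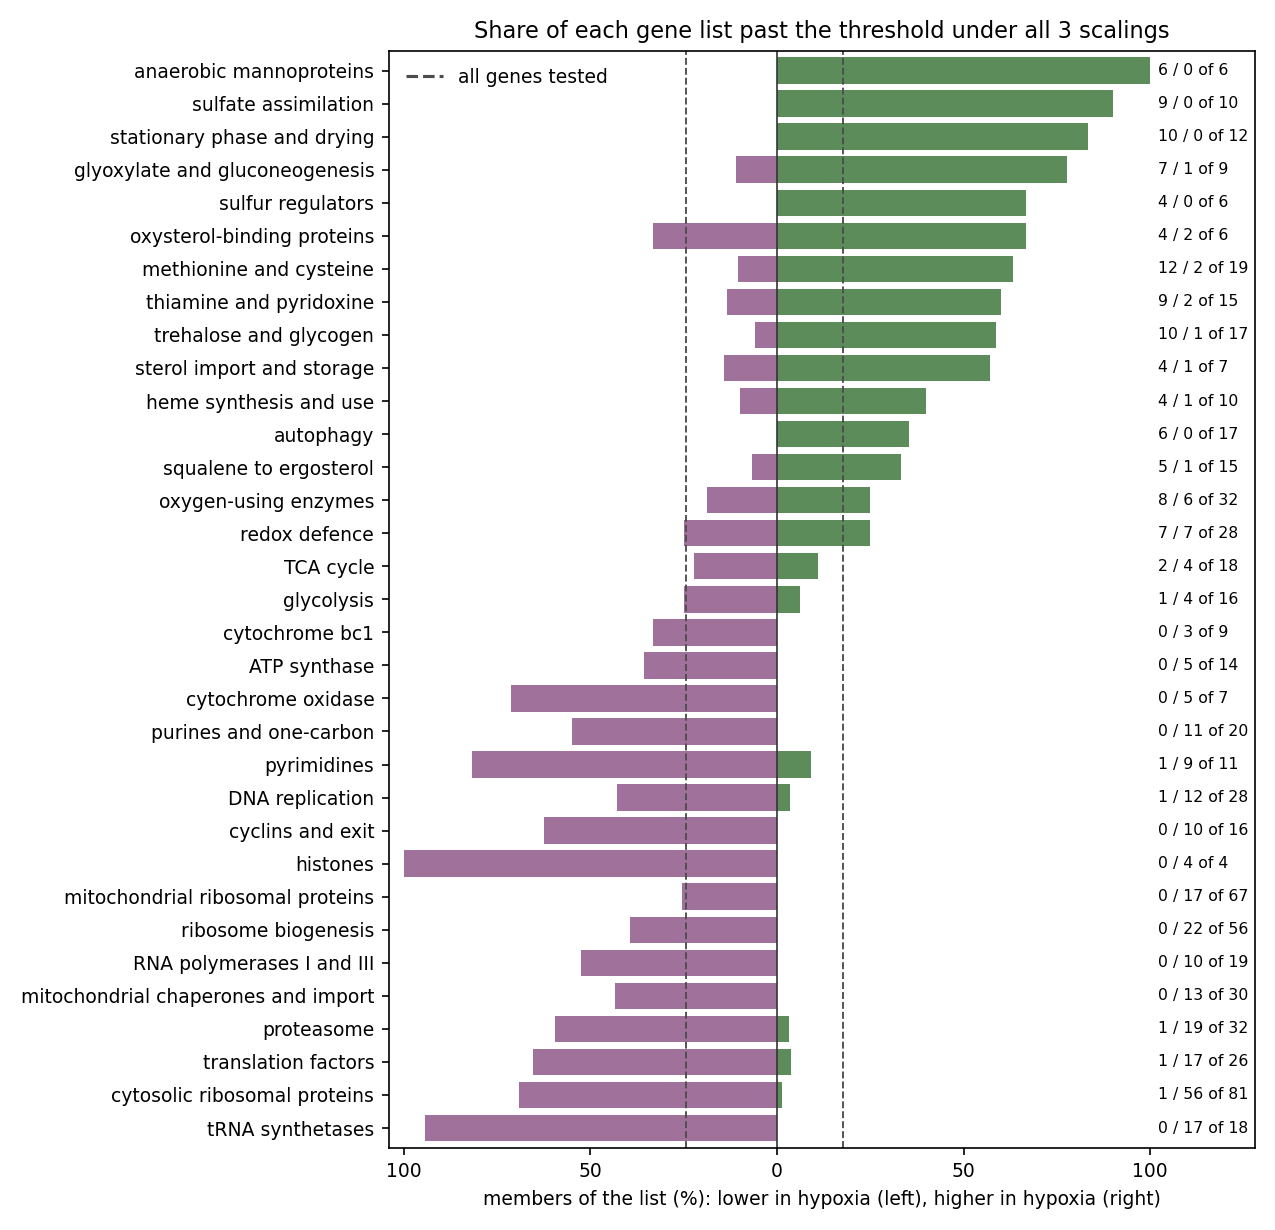
Share of the tested members of 33 gene lists that rose (right) or fell (left) in hypoxia under all 3 scalings, with dashed lines for all genes tested (17.6% rose, 24.3% fell) and counts at the right as higher / lower of members tested. The anaerobic mannoproteins and sulfate assimilation lie at the top with no falls, and cytosolic ribosomal proteins and tRNA synthetases at the bottom.

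Cell cycle genes were lower. None of 16 cyclin and exit genes rose and 10 fell, against 17.6% and 24.3% of all genes. CLN1, a G1 cyclin, had 39.5 and 35.9 in hypoxia, against 314 and 378 in normoxia, and fell at least 8.22-fold (log2 difference -3.19, SE 0.21, adjusted p = 9.38e-06), and PCL1, a cyclin of the Pho85 kinase, fell at least 4.79-fold. CLB1, a mitotic cyclin, had 32.7 and 26.1 in hypoxia, against 218 and 233 in normoxia, and fell at least 5.38-fold, and CLB2, its paralog, fell at least 2.09-fold, with hypoxia values of 4.88 and 19.5 and log2 differences of -2.17 without hypoxia array 1 and -4.17 without hypoxia array 2. All 4 histone genes with a probe set of their own fell: HTB2 had 371 and 344 in hypoxia, against 4234 and 3952 in normoxia, and fell 11.5-fold. In DNA replication 12 of 28 fell, 42.9% against the 24.3% of all genes. RNR1, the large subunit of ribonucleotide reductase, had 104 and 92.9 in hypoxia, against 1166 and 1248 in normoxia, and fell 12.3-fold. POL30, the sliding clamp, also fell 12.3-fold. RNR3, the damage-induced form of RNR1, rose at least 4.22-fold. In bulk cultures, fewer cells in a stage of the cycle and less RNA per cell cannot be told apart.

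Mating genes differed by class. The 4 alpha-specific genes, which mark alpha cells, all fell: MF(ALPHA)2 had 125 and 91.2 in hypoxia, against 5721 and 5518 in normoxia, and fell 52.6-fold (log2 difference -5.72, SE 0.27, adjusted p = 1.53e-06), the largest fall among genes above the 30th percentile on all 4 arrays. MF(ALPHA)1 had 6161 and 5907 in hypoxia, against 16107 and 14977 in normoxia, and fell. SAG1, the alpha agglutinin, fell 5.73-fold and STE3, the receptor for a-factor, 4.32-fold. The a-specific genes STE2, ASG7 and AGA2 were below the filter on low signals. The 4 a-specific genes tested were all higher with MAS5 scaling, and only BAR1, with 116 and 142 in hypoxia, against 56.8 and 52.3 in normoxia, rose under all 3, by 2.35-fold, a count of 0 without either hypoxia array or normoxia array 2. MFA1 had 52.4 and 60.9 in hypoxia, against 24.99 and 1.32 in normoxia, MFA2 had 46.8 and 68.2 in hypoxia, against 26.8 and 30.02 in normoxia, and STE6 had 35.6 and 45.7 in hypoxia, against 13.7 and 25.1 in normoxia, values at or near background, and the calls of all 3 were lost without hypoxia array 2. Of 15 genes of pheromone signalling 1 rose, 5 fell and 9 did neither, against 17.6% rising and 24.3% falling of all genes. Fewer fell without hypoxia array 1, hypoxia array 2 or normoxia array 1. KAR4, a factor for karyogamy genes, fell 4.13-fold and STE12, the activator of pheromone-induced genes, 2.51-fold. Among the strain's markers HIS3 had 774 and 1086 in hypoxia, against 1037 and 1315 in normoxia. LEU2 lay at 6.93 and 17.4 in hypoxia, against 13.7 and 36.4 in normoxia, 3 of 4 values below the 30th percentile, and LYS2 and URA3 stayed under a signal of 10 on all 4 arrays.

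Genes of stationary phase and desiccation rose, 10 of 12 with none falling, against 17.6% and 24.3% of all genes. SPG4, required for survival in stationary phase, had 1590.1 and 2064 in hypoxia, against 15.6 and 21.3 in normoxia, and rose at least 62.97-fold (log2 difference 6.64, SE 0.24, adjusted p = 3.72e-07). SIP18, a hydrophilin, had 1295 and 1249 in hypoxia, against 13.9 and 12.7 in normoxia, and rose at least 44.2-fold, and HSP12 and DDR2, general stress genes, rose 9.45-fold and 16.1-fold. Autophagy had 6 of 17 up (35.3%, against 17.6% of all genes) and none down. ATG22, a vacuolar amino acid exporter, had 753 and 701 in hypoxia, against 107 and 113 in normoxia, and rose 6.62-fold. ATG10 rose 5.99-fold and ATG15, the vacuolar lipase, 5.53-fold. Of 20 meiosis genes only 6 passed the filter on low signals; DMC1, the meiotic recombinase, had 189 and 185 in hypoxia, against 23.6 and 19.6 in normoxia, and rose at least 6.50-fold, and NDT80, the activator of middle meiotic genes, rose at least 2.11-fold.

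Across all genes, 898 rose at least 2-fold and 657 fell at least 2-fold by MAS5 signal, including genes for which only a bound is given elsewhere. A rise had also to pass after median centring, which lowers every log2 difference by 0.49, so counts of large rises and falls are not measured alike. Among genes above the 30th percentile on all 4 arrays, 84 rose and 11 fell by at least 8-fold. The largest measured rises were in the seripauperin family, whose probe sets can cross-hybridise among near-identical copies, so that members cannot be told apart. PAU3 had 11046 and 11852 in hypoxia, against 43.4 and 37.1 in normoxia, and rose 285-fold (log2 difference 8.16, SE 0.17, adjusted p = 3.96e-08), followed by PAU19 (226-fold), PAU10 (177-fold), PAU17 (157-fold), PAU7 (144-fold) and PAU16 (136-fold). PAU23, PAU13 and PAU4 rose 112-fold, 96.2-fold and 86.9-fold, and PAU15, whose normoxia values lay below the 30th percentile, rose at least 259.7-fold. TIR4, YSR3 and TSA2 complete the 12 largest. PBI1 had 2999 and 3096 in hypoxia, against 9.14 and 14.02 in normoxia, and rose at least 106-fold.

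After MF(ALPHA)2, CWP1 and UTR2, the largest measured falls were YNL058C (18.1-fold), SCW10, TOS6 (13.1-fold), POL30, RNR1, HTB2, GAS3, GIC2 (8.05-fold) and PRY2 (7.99-fold). TOS6 encodes a wall protein, and GIC2 an effector of the polarity GTPase Cdc42, with 162 and 149 in hypoxia, against 1396 and 1123 in normoxia. Of genes that were dim in hypoxia, CYC1 had the largest bound, before AIM20 (at least 11.05-fold), CLN1, HO (at least 8.17-fold), CLB1 and TOS4 (at least 5.17-fold). HO, the mating-type switching endonuclease, had 28.3 and 31.4 in hypoxia, against 348 and 337 in normoxia. In all, 125 genes were above the 30th percentile on both hypoxia arrays and at or below it on both normoxia arrays, of which 101 rose, and 138 were the other way round, of which 86 fell.

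Several paralogs moved in opposite directions, a set picked after the values were seen. TRR2 rose and TRR1, the cytosolic thioredoxin reductase, fell 1.55-fold, with 2932 and 3246 in hypoxia, against 4724 and 4849 in normoxia. GSC2 rose and FKS1 fell 1.90-fold, with 3374 and 4005 in hypoxia, against 6808 and 7169 in normoxia. URA10 rose and URA5 fell, NDE2 rose and NDE1 fell, HES1 rose and KES1 fell, and SSA3 and SSA4 rose while SSA2 fell. TSA2 rose while TSA1, the main cytosolic peroxiredoxin, had 10866 and 12230.0 in hypoxia, against 19832 and 17072 in normoxia, lower with MAS5 scaling but not under all 3.

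Finally, the hypoxia response was set against the response of the hem1 strain to ALA withdrawal. Strain, medium supplement and time differ together between these experiments, so a difference cannot be assigned to oxygen or heme alone. The limma test of the difference of the responses passed for 16.3% of genes, 6.45% with a higher and 9.81% with a lower response in hypoxia. Counted over probe sets, 1257 (17.8%) passed, 533 without hypoxia array 1 and 467 without the arrays of high 18S signal. A response depends on its starting level, and the hem1 strain fed ALA already had high signals for several hypoxic genes. DAN1 had 5919 and 6119 without ALA, against 1357 and 2638 with ALA in the hem1 strain, against 11.5 and 32.7 in wild type normoxia, and the test of the difference passed (adjusted p = 7.97e-04). Since 1 normoxia value lay below the 30th percentile, no size is given for that difference. ANB1 had 11879 and 9776 without ALA, against 7713 and 8217 with ALA, a log2 response of 0.44, against 4.56 in hypoxia, a difference of 4.12 (adjusted p = 1.63e-04). TIR1 had 26946 and 23123 without ALA, against 24136 and 19607 with ALA, and TIR4 16799 and 15572 without ALA, against 1123 and 1722 with ALA. All 6 DAN and TIR genes had a higher response in hypoxia by this test, and in the hem1 strain with ALA DAN1, TIR1 and TIR4 were each well above their wild type normoxia signals.

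The sulfur genes differed between the responses. Of 10 sulfate assimilation genes 8, and of 19 methionine and cysteine genes 10, had a higher response in hypoxia, against 6.45% of all genes. MET2, whose normoxia values lay below the 30th percentile, had 169 and 144 without ALA, against 95.4 and 112 with ALA in the hem1 strain, a log2 response of 0.59 (adjusted p of the difference = 9.56e-05). MET6 had 2.83 in hypoxia and -0.039 on ALA withdrawal, a difference of 2.87 (adjusted p = 0.0061). ECM13, a gene of unknown function, had 457 and 450.3 in hypoxia, against 99.5 and 82.4 in normoxia, and in the hem1 strain 67.7 and 87.1 without ALA, against 864 and 892 with ALA, responses of opposite sign that differed by 5.84 (adjusted p = 8.23e-05).

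In the other direction, CYC1 passed the test (adjusted p = 0.0015), but it had 10.9 and 13.7 without ALA, against 18.3 and 32.1 with ALA in the hem1 strain, all 4 below the 30th percentile of their arrays, so that no response could be measured there. CIP1 had -2.40 in hypoxia and 0.91 on ALA withdrawal, and FET3 had -2.74 in hypoxia and -0.064 on ALA withdrawal. MDH2 had -0.71 in hypoxia and 2.03 on ALA withdrawal, opposite signs with a difference of -2.74. Of 16 cytosolic chaperones, 12 had a lower response in hypoxia, against 9.81% of all genes. SSA4 had 1.92 in hypoxia and 3.16 on ALA withdrawal, a difference of -1.24 (adjusted p = 0.0066). Of the 10 isoform genes, 2 had a higher response in hypoxia, ANB1 among them, and 2 a lower one, CYC1 among them. That compares with 6.45% and 9.81% of all genes. HYP2, HMG2, CYC7 and PET9 showed no difference past the threshold between the responses.

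**Figure D5:**
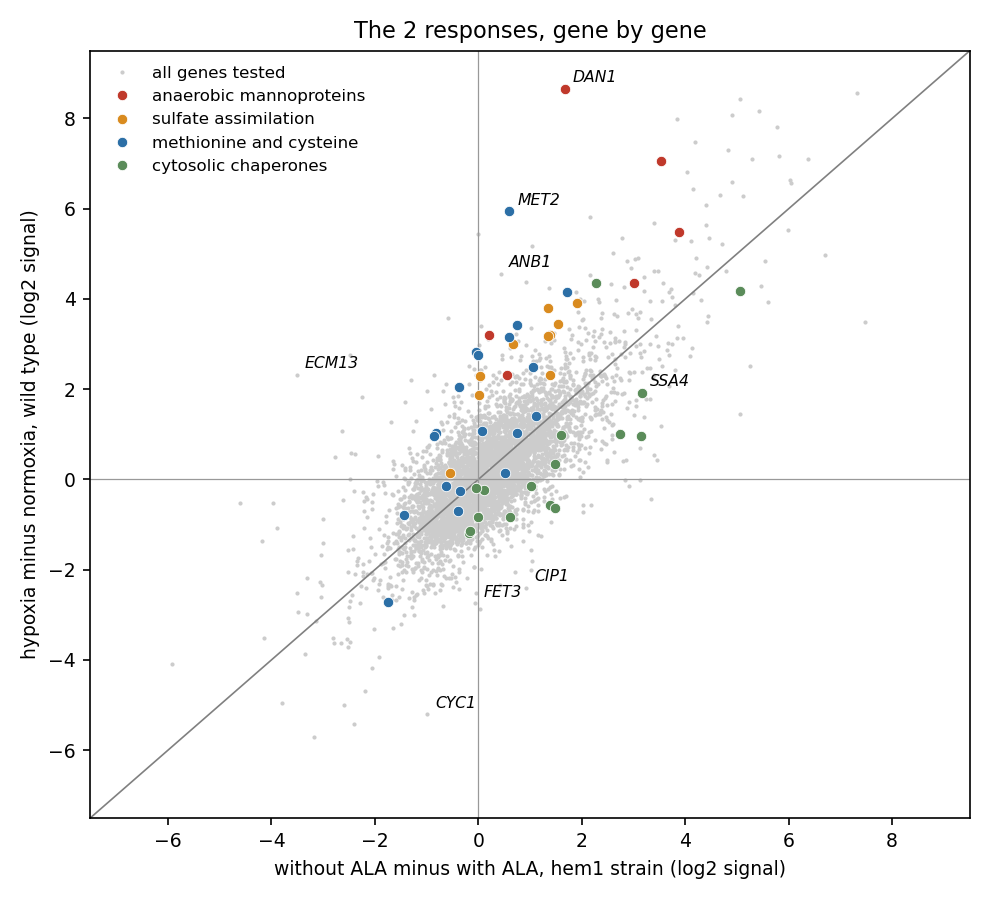
Log2 response to hypoxia in wild type (vertical axis) against log2 response to ALA withdrawal in the hem1 strain (horizontal axis) for each of the 5283 genes, with the line of equal response; 4 gene lists are coloured and single genes named. Sulfate and methionine genes lie mostly above the line, cytosolic chaperones mostly below it, and DAN1, MET2 and ECM13 far above it.

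The probe sets of 252 genes could be compared with each other, and for 8 genes they passed in both directions. PPT1, YDR444W, UTP20, RPL7A, BBC1 and MEC1 are 6 of these, and the value of such a gene depends on the probe set chosen. A further 1319 tested probe sets have no single gene name. Of these 26.6% rose and 9.93% fell under all 3 scalings, against 17.6% and 24.3% of named genes.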

How the data were processed

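Total RNA of each sample was labelled by the standard Affymetrix procedure and hybridised to 1 YG_S98 array, per the labels' protocols. The values deposited by the authors are MAS5 signal intensities, 1 per probe set and array, unlogged and scaled to a common trimmed mean, as the values themselves show. The array holds 9335 probe sets, of which 60 controls were left out. Signals were taken to log2, and a probe set was kept when it lay above its array's 30th percentile on at least 2 of 8 arrays, which left 7081. limma 3.58.1 in R 4.3.3 fitted all 8 arrays of the 4 groups together, with an intensity trend, and p-values were adjusted by Benjamini-Hochberg over the 7081 probe sets at a threshold of 0.05. The residual degrees of freedom were 4, and the small number of arrays limits the precision. Each gene is represented by its probe set with the highest mean signal. Of all probe sets, 6504 have 1 gene name in the platform annotation, 328 several and 2443 none, and genes were named only from the first kind.

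The fit was repeated after median centring, quantile normalization and spike scaling, with other filters, without the trend, on the wild type arrays alone and with single arrays left out. The gene lists and the members named were chosen with earlier results of these data known. Named genes were the 12 largest rises and 12 largest falls above the 30th percentile on all 4 arrays, and the 6 highest bounds each way. Members of lists of up to 20 genes, up to 4 genes per direction of longer lists and the strain markers were also named. So were genes whose probe sets disagree and some of the 6 largest differences of responses each way. Of the latter, YNL277W-A, CIN1, UBC11, YNL194C, FMP48 and REE1 were left out, and other genes given for that contrast came from the lists. FKS1, TRR1 and TSA1 fall outside these rules and were chosen after their values were seen, and ACT1 and SPT15 are named as array controls. A promoter motif count was planned and not run, since no sequences were used here.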

Additional observations from a re-analysis of the deposited data

Results flagged for a closer look

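Control probe sets outside the comparison showed signals in hypoxia above those of the normoxia arrays. The 18S ribosomal RNA control read 10736 on hypoxia array 2, against 122 and 259 on the normoxia arrays. The 25S control read 9804 on hypoxia array 2, against 1143 and 3838 on the normoxia arrays. The 3′ to 5′ ratio of ACT1 was 2.11 on hypoxia array 1 and 2.18 on hypoxia array 2, against 1.40 and 1.49 on the normoxia arrays. That of SPT15 was 5.20 on hypoxia array 1 and 4.22 on hypoxia array 2, against 2.19 and 2.77 on the normoxia arrays. The part of these differences in the gene results was not tested.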

How the results depend on the processing

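Of 3954 probe sets past the threshold, 2358 were higher and 1596 lower in hypoxia with MAS5 scaling. Median centring gave 1414 higher and 2621 lower, by the shift between the array medians that it removes. With 1 wild type array left out in turn, 3080 to 3540 passed, 1812 to 2237 higher and 1208 to 1399 lower, and 2178 to 2602 passed under all 3 scalings against 2897 with every array. The other filters, the fit without the trend and the fit on the 4 wild type arrays kept these counts within 1.5 times. The difference from the heme depletion response was less stable: 1257 probe sets passed, 533 to 1089 with 1 wild type array left out, the lowest without hypoxia array 1, and 467 without the arrays of high 18S signal, fits with fewer samples. Among named genes, ATP2 (log2 difference -0.44) and HXT3 (-0.12) turned negative after median centring, and PPT1 (-0.77) and UTP20 (-0.32) did so with the mean of all their probe sets, which disagree. No paired analysis was possible because the labels give no replicate numbers, so the numbers used here only name the samples. Signals at or below the 30th percentile allow only a bound on a fold change.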
